A study of Drosophila melanogaster with 4 samples.

Results

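The 31 transcripts described here were at least 8-fold higher in Hdac1 mutant larvae than in wild type larvae of Drosophila melanogaster. This held on each of 4 arrays after centring, and all 31 passed the detection demand in both genotypes. They were chosen by the measured ratios themselves. The array design carries 15003 transcripts under a FlyBase identifier, a name that begins with FBtr. Of these, 13285 were well above background, by the scanner software's own mark, in both genotypes on all 4 arrays. The log2 ratio of mutant over wild type was set to a median of 0 over these transcripts on each array. A transcript was a member when its ratio reached 3 on every array, and 31 of 13285 (0.233%) did. Since the choice used these ratios, the values below describe the members and are no test of them.

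Hdac1, called Rpd3 in much of the fly literature, is an enzyme that removes acetyl groups from lysines of histone tails. It is the catalytic subunit of large corepressor assemblies such as the Sin3 and NuRD complexes, which DNA-binding factors bring to genes. Acetylated histones are typical of active promoters, and their deacetylation is linked to repression, although the enzyme is also found at active genes. Many transcripts can therefore move when it is lost, as direct targets or further downstream, and array ratios do not separate these.

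RNA came from larvae at the 3rd instar, the last larval stage, grown at 25 °C. The wild type was the strain Oregon-R. The mutant carried the alleles Hdac1[303] and Hdac1[def8] over each other in the same background. Each array was a direct hybridisation of both genotypes, with 15 µg of total RNA labelled with Alexa Fluor 555 (green) for the wild type and Alexa Fluor 647 (red) for the mutant. The labels call the 4 arrays biological replicates, and give neither the number nor the sex of the larvae in a sample. The dyes ran the same way on all 4 arrays, so dye and genotype cannot be told apart. In RNA of whole larvae, more cells of a type and more RNA per cell cannot be told apart either.

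By the scanner software's mark, 84.8% to 86.5% of an array's spots gave a clear wild type signal and 84.0% to 86.8% a clear mutant signal. The number of arrays limits the precision. Across the 13285 transcripts, the ratios of 2 arrays correlated with r from 0.932 to 0.962, over transcripts that share arrays and dyes. None of the 31 members could be paired with a gene symbol (0 of 31), since the gene table used here names only 8 of the transcripts with a FlyBase identifier. Their functions are therefore not described, and no sequence is shown. No probe could be paired with Hdac1 itself, so the transcript of the mutated gene was not analysed here.

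The mean log2 ratio of a member over 4 arrays ran from 3.13 for FBtr0077086 to 5.59 for FBtr0076375, that is from 8.74-fold to 48.3-fold. The median of the 31 means was 3.87, a 14.6-fold difference. On every array 10 members stood at 4 or higher and 2 of these at 5 or higher. Across all 13285 transcripts, 1222 were at 1 or higher on every array and 163 at 2 or higher. The members are thus the far end of a distribution that thins out steadily, with transcripts close by on both sides of the threshold. In every member the lowest mutant signal, divided by the centre of its array, lay above the highest wild type signal of the 4 arrays (31 of 31). The smallest such gap was 3.42-fold, in FBtr0087854. The rule demands at least 8-fold on each array, so this gap is no separate evidence.

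**Figure D1:**
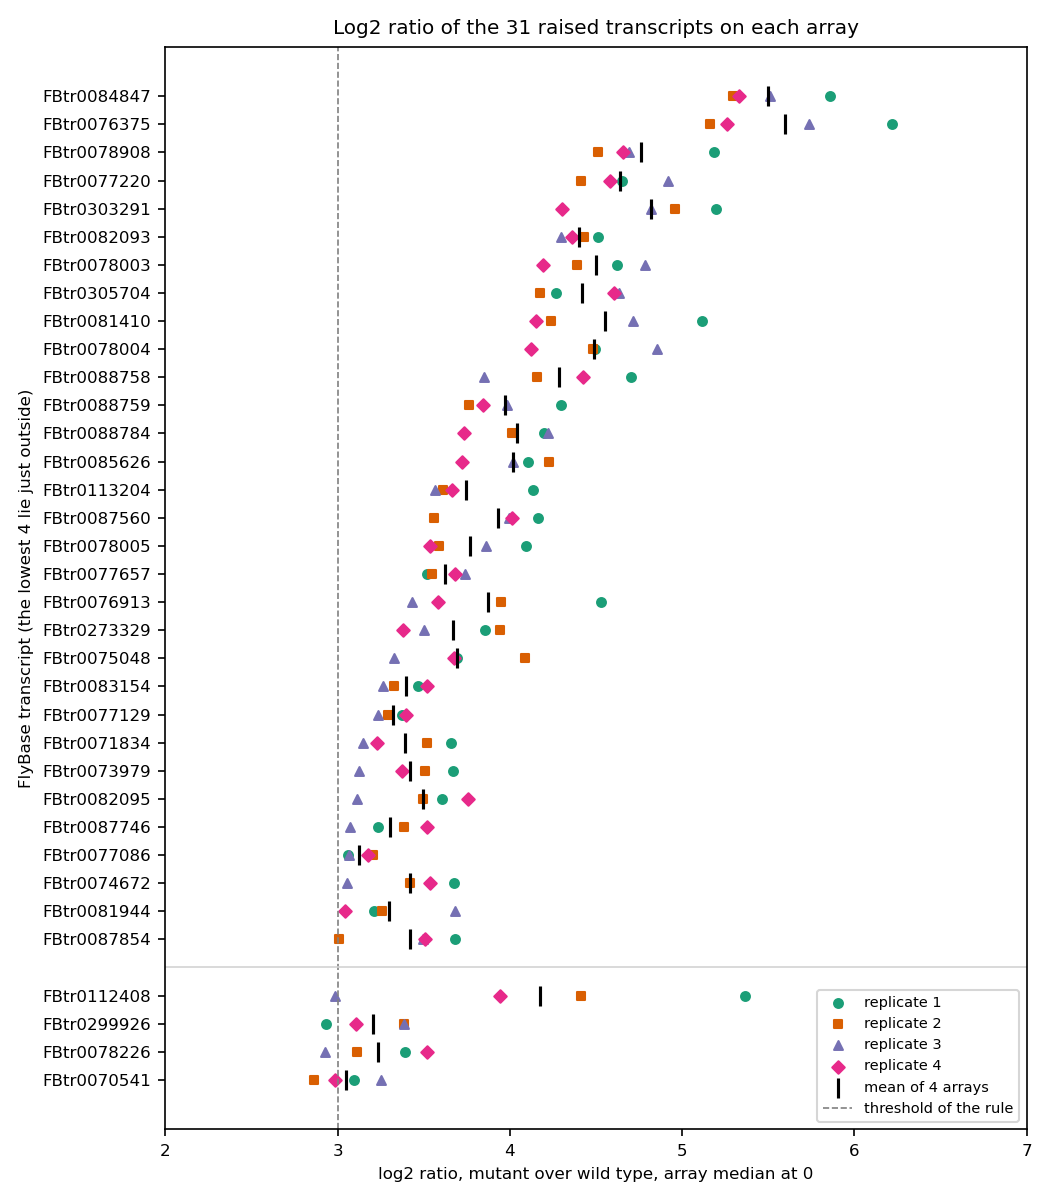
Log2 ratio of mutant over wild type (x axis, array median at 0) of the 31 members and, below the grey line, of the 4 transcripts just outside, with 1 symbol per array and a bar at the mean of 4 arrays. All symbols of the members lie right of the dashed line at 3, and FBtr0084847 and FBtr0076375 lie above 5 on every array.

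FBtr0084847 had the highest ratio when members are ordered by their lowest array. Its background-subtracted wild type signals were 220.5, 246, 360.5 and 248 on replicates 1 to 4. Its mutant signals were 54289, 54249, 69186 and 59741. After centring, its log2 ratios were 5.86, 5.30, 5.51 and 5.33, with a mean of 5.50 ± 0.26 (SD, n = 4), a 45.2-fold difference. The total spot signal in the wild type channel was 7.68 to 12.3 times the local background, so both channels were clearly measured.

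FBtr0076375 had a higher mean but a less firm base. Its wild type signals were 45.5, 29, 54 and 71.25, and total spot signal was only 1.95 to 3.77 times the local background. Its mutant signals were 14401, 5823, 12143 and 16382. The log2 ratios were 6.22, 5.16, 5.74 and 5.26 (mean 5.59 ± 0.49, SD, n = 4). The 48.3-fold mean difference is the largest of the 31 under the rule's own scaling. With a model-based background correction (normexp) and intensity-dependent centring (loess), FBtr0076375 stood at 4.64 ± 0.51 and FBtr0084847 at 5.24 ± 0.22, so their order turned. The log ratio computed by the scanner software put them at 6.50 and 5.60.

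The other 8 members at 4 or higher on every array were FBtr0078908, FBtr0077220, FBtr0303291, FBtr0082093, FBtr0078003, FBtr0305704, FBtr0081410 and FBtr0078004. FBtr0077220 was the only one of them with a wild type signal over 150. Its log2 ratios were 4.65, 4.41, 4.92 and 4.58, from wild type signals of 583, 324.5, 420 and 354. Its mean of 4.64 ± 0.21 (SD, n = 4) was a 24.9-fold difference. With normexp and loess it stood at 4.46 ± 0.21, a difference within its SD.

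FBtr0082093 was the most even of the 8, at 4.51, 4.43, 4.30 and 4.36 (mean 4.40 ± 0.091, SD, n = 4). FBtr0303291 was less even, at 5.20, 4.96, 4.82 and 4.30, and FBtr0081410 ran from 4.15 on replicate 4 to 5.12 on replicate 1. FBtr0078908 ran from 4.51 to 5.19. The remaining FBtr0078003 (4.50 ± 0.26), FBtr0078004 (4.49 ± 0.30) and FBtr0305704 (4.42 ± 0.23) had means closer together than the SD of each, so their order is not set.

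Members differed widely in how firmly the wild type level was measured. The local background in the wild type channel was 23 to 36.5 at their spots. A mean background-subtracted wild type signal above 1000 was found for 6 members, between 150 and 1000 for 10 and under 150 for 15. Signals of different probes are not compared as transcript levels, because probes differ in how well they bind. No spot of a member was saturated (0 of 200 spots over 4 arrays), and none carried a non-uniformity mark.

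**Figure D2:**
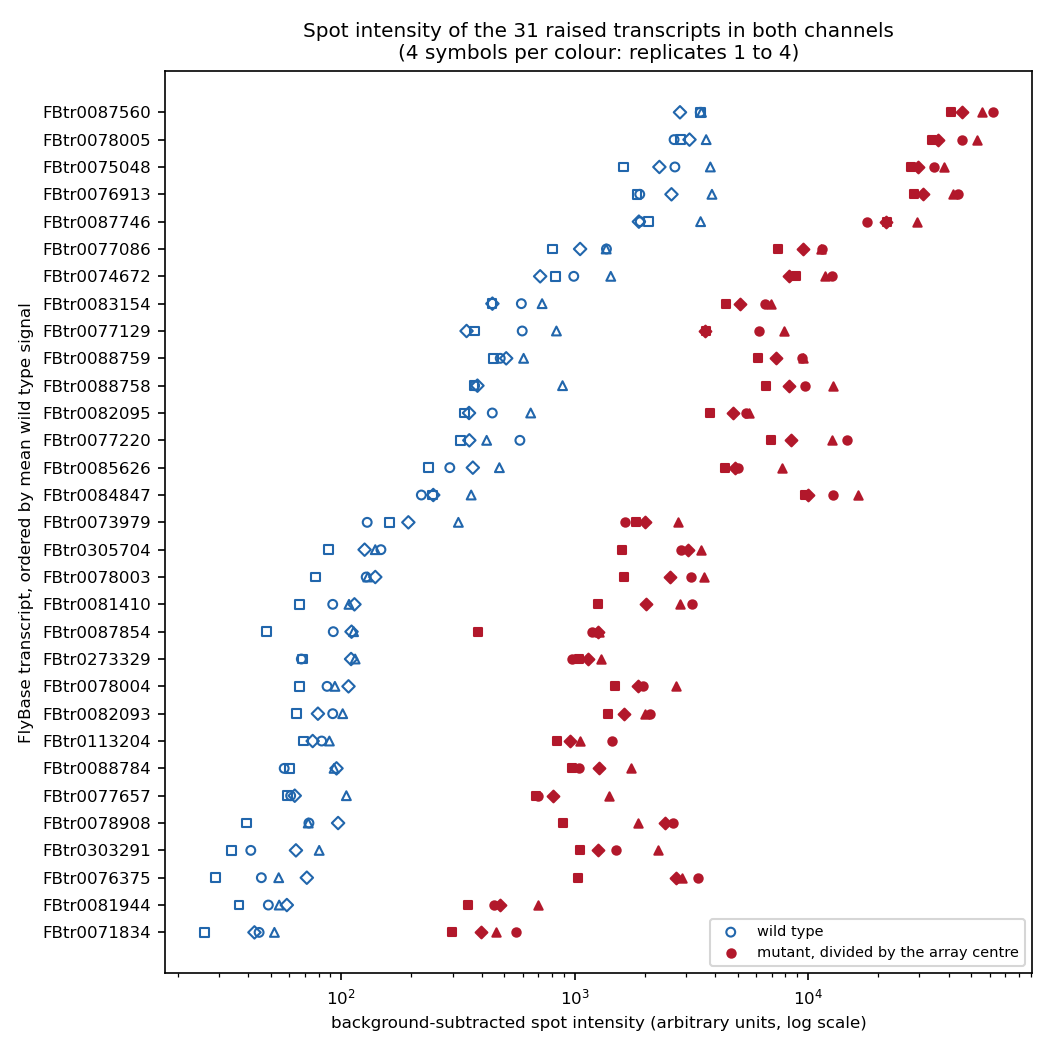
Background-subtracted spot intensity (x axis, arbitrary units, log scale) of the 31 members in the wild type channel (open symbols) and in the mutant channel divided by the centre of its array (filled symbols), with 4 arrays each. Wild type signals run from 26 to 3877, and in every member the 2 channels are apart on all 4 arrays.

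The 6 members with the strongest wild type signal were FBtr0087560, FBtr0078005, FBtr0075048, FBtr0076913, FBtr0087746 and FBtr0077086. FBtr0087560 had wild type signals of 3454, 3470.5, 3496 and 2828.5, and total spot signal was at least 118 times the local background. Its mutant signals were 262689, 229296, 235089 and 273543. The log2 ratios were 4.16, 3.56, 4.00 and 4.01 (mean 3.93 ± 0.26, SD, n = 4), a 15.3-fold difference. In this transcript neither channel was near the background on any array.

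FBtr0078005 gave 4.09, 3.59, 3.86 and 3.54, a mean of 3.77 ± 0.26 and a 13.6-fold difference. FBtr0075048 gave 3.69, 4.09, 3.33 and 3.67, a mean of 3.70 ± 0.31. FBtr0087746 gave 3.23, 3.39, 3.07 and 3.52 (3.30 ± 0.19). The values of FBtr0075048 overlapped with those of both others, while FBtr0087746 lay below FBtr0078005 throughout. FBtr0077086 was the lowest and among the most even, at 3.06, 3.21, 3.06 and 3.18 (3.13 ± 0.076, SD, n = 4), an 8.74-fold difference.

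The means of these 6 were lower under loess. With normexp and loess they lay from 2.97 to 3.52, against 3.13 to 3.93 under the rule. FBtr0075048, FBtr0087746 and FBtr0077086 were then below 3 on at least 1 array, while all 6 stayed at 3 or higher when no background was subtracted.

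The 10 members with a middle wild type signal were FBtr0084847, FBtr0077220, FBtr0088758, FBtr0088759, FBtr0085626, FBtr0082095, FBtr0074672, FBtr0073979, FBtr0083154 and FBtr0077129. Their means ran from 3.32 to 5.50, with a median of 3.73. FBtr0088758 gave 4.70, 4.16, 3.85 and 4.43 and FBtr0088759 gave 4.30, 3.77, 3.98 and 3.84. FBtr0085626 gave 4.11, 4.23, 4.02 and 3.73 (mean 4.02 ± 0.22, SD, n = 4), a 16.2-fold difference. FBtr0088758 and FBtr0088759 overlapped with it over the arrays.

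Below these, FBtr0082095 averaged 3.49 ± 0.27, FBtr0074672 3.42 ± 0.27, FBtr0073979 3.42 ± 0.23 and FBtr0083154 3.40 ± 0.12. FBtr0077129 was at 3.37, 3.29, 3.23 and 3.40 (3.32 ± 0.076, SD, n = 4), a 10.0-fold difference. Its SD and that of FBtr0077086 were the smallest of the 31, and equal to 2 digits. The means of these 5 lay closer together than the arrays of any 1 of them, except those of FBtr0077129.

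The 15 members with a weak wild type signal had means from 3.30 to 5.59, with a median of 4.40, so the highest ratios lie mostly here. For 7 of them the wild type signal stayed under 100 on all 4 arrays. FBtr0071834 was the faintest, with wild type signals of 44.5, 26, 51.75 and 42.5 against mutant signals of 2390, 1671, 1936 and 2389. Its ratios were 3.66, 3.52, 3.15 and 3.23 (mean 3.39 ± 0.24, SD, n = 4). With normexp and loess it stood at 2.65 ± 0.09, and at 4.56 by the software's own log ratio. Its place at the 8-fold threshold thus depends on the background correction and the centring.

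FBtr0081944 was also faint, at 3.21, 3.26, 3.68 and 3.04 under the rule (3.30 ± 0.27) and at 2.66 ± 0.33 with normexp and loess. FBtr0087854 gave 3.68, 3.01, 3.49 and 3.51, where replicate 2 alone brought it to the edge. FBtr0077657 gave 3.52, 3.55, 3.74 and 3.68 (3.62 ± 0.11, SD, n = 4), even between arrays. Within an array its 2 spots were further apart, by up to 0.68, the largest gap of the 76 pairs of duplicate spots of members.

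FBtr0088784 averaged 4.04 ± 0.23, FBtr0113204 3.74 ± 0.26 and FBtr0273329 3.67 ± 0.27. The others of the weak group, FBtr0076375, FBtr0078908, FBtr0303291, FBtr0082093, FBtr0078003, FBtr0078004, FBtr0081410 and FBtr0305704, are those given above among the members at 4 or higher. With normexp and loess the median of the 15 was 3.82, against 3.58 for the 10 with a middle and 3.37 for the 6 with a strong wild type signal. Requiring both channels to be at least 4 times their local background kept 16 members (16 of 11905 transcripts, 0.134%). The 15 left out by that stricter demand had a fainter signal on at least 1 array, and were not shown to differ less.

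**Figure D3:**
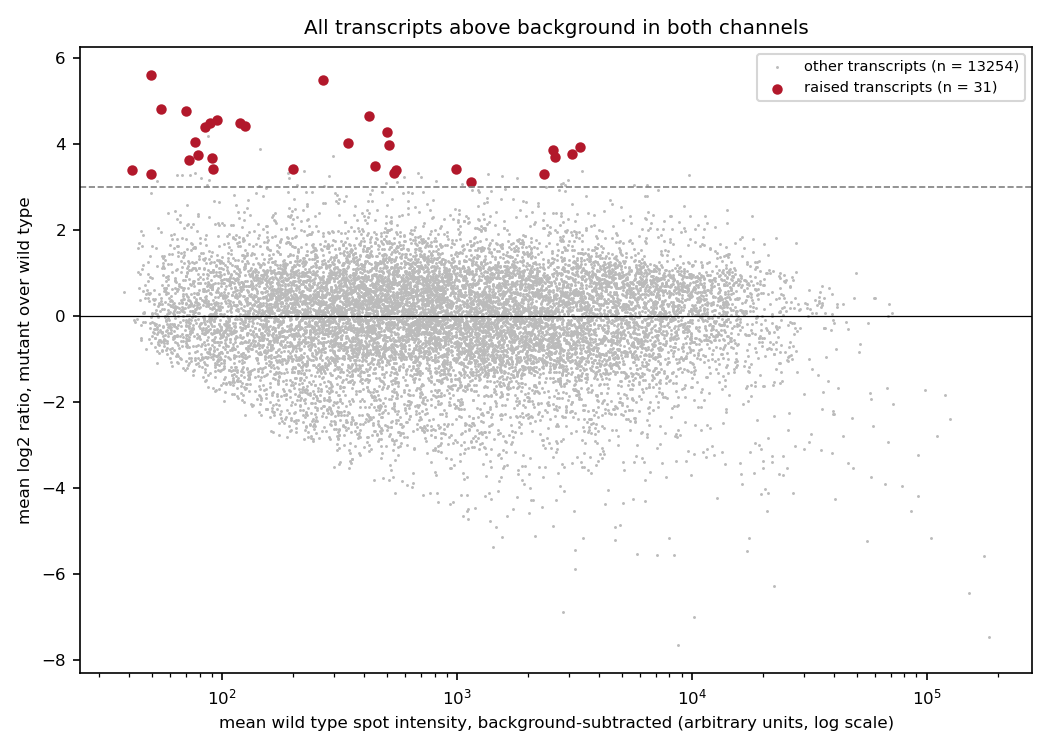
Mean log2 ratio over 4 arrays (y axis) against mean background-subtracted wild type intensity (x axis, arbitrary units, log scale) of the 13285 transcripts above background in both channels. The 31 members (red) span wild type signals from faint to 3312 on average, and transcripts far below 0 reach lower values and higher wild type signals than the members do.

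The mutant signal of 15 members was taken by the scanner software from the scan at lower detector gain on all 4 arrays, and that of the other 16 from the scan at full gain. The lower gain was used for 2210 of the 13285 transcripts (16.6%). The means of the first group ran from 3.13 to 5.50 and of the second from 3.30 to 5.59. Each upper end is a single member, FBtr0084847 and FBtr0076375. The second group was the 15 members with a weak wild type signal and FBtr0073979. Gain and wild type signal can therefore hardly be told apart here. In the wild type channel no member was read at the lower gain (0 of 31).

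The members' spots were spread over the whole array. Of the 50 spots per array, 13 lay at the upper left, 10 at the upper right, 11 at the lower left and 16 at the lower right. They reached from row 19 to row 522 of 532 and from column 1 to column 85 of 85. Of the members, 19 had 2 spots of the same probe on each array. The median gap between such spots was 0.12 on the log2 scale, against 0.085 over the 6592 transcripts with 2 spots. The lowest ratio of a single spot among them was 2.88, below the threshold that the average passed.

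Between arrays, the SD of a member ran from 0.076 to 0.49, with a median of 0.26. The median over all 13285 transcripts was 0.24, and 12 of the 31 members lay below it. The rule leaves out transcripts with 1 low array, which can hold down the SD of members. The comparison therefore does not show how repeatable they are. FBtr0076913 and FBtr0076375 had the largest SDs, both 0.49, followed by FBtr0081410 (0.45) and FBtr0303291 (0.38). In all 4 replicate 1 was the highest array.

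Arrays were not equal in this respect. Replicate 1 was the highest array for 16 of 31 members, and the median member stood at 4.13 there, 3.94 on replicate 2, 3.85 on replicate 3 and 3.73 on replicate 4. Replicate 3 was the lowest array for 12 members and replicate 1 for 2. Without replicate 3, 53 transcripts met the rule (0.396% of 13381), among them all 31 members. Without replicate 1, 2 or 4 the number was 34 (0.254%), 34 (0.255%) or 35 (0.263%). The wild type signal was highest on replicate 3 for 21 of 31 members, and over all 13285 transcripts its median was also highest there, at 1046.25 against 640.5 to 927 on the others. The part of array brightness in this was not tested.

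The clearest case just outside was FBtr0112408, with ratios of 5.37, 4.41, 2.98 and 3.94. Its mean of 4.18 ± 0.99 (SD, n = 4) exceeded that of 20 of the 31 members, and only replicate 3 kept it out. Its wild type signals were low, between 52.5 and 139.75. FBtr0299926 (2.93, 3.39, 3.39 and 3.11) and FBtr0078226 (3.39, 3.11, 2.93 and 3.52) also missed on 1 array. FBtr0070541, with wild type signals of 5849 to 6971, reached 3.09, 2.86, 3.25 and 2.99 and missed on 2 arrays. The members just inside, FBtr0077086, FBtr0074672, FBtr0081944 and FBtr0087854, had lowest arrays of 3.06, 3.05, 3.04 and 3.01. The 4 transcripts just outside thus missed the rule on 1 or 2 arrays.

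A further 4 transcripts reached 3 on every array but were above background in the wild type on only some of them, and so were not members. FBtr0080587 was the highest of these, at 5.52, 5.19, 5.04 and 4.79, with wild type signals of 37.5 to 61.5. The faintest member, FBtr0071834, had wild type signals of 26 to 51.75. FBtr0078959 averaged 3.97 ± 0.28, FBtr0087117 3.90 ± 0.24 and FBtr0076659 3.62 ± 0.29. The lowest array of FBtr0080587 lay between those of the members FBtr0076375 and FBtr0078908.

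A transcript can have several probes, and the rule kept the brightest. Of the 31 members, 26 had 1 probe and 5 had 2, and in all 5 both probes were above background in both channels on all 4 arrays. Probes of a transcript may lie in different exons or share sequence, and their positions are not given in the sources used here. The second probe is a reading of the same RNA on the same arrays.

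In 3 of the 5 both probes were high. FBtr0084847 read 5.01, 4.93, 4.89 and 4.31 at its second probe, below its brighter one on every array. FBtr0078908 read 5.13, 4.46, 5.02 and 4.70, close to the 5.19, 4.51, 4.69 and 4.66 of the brighter probe. FBtr0076913 read 4.01, 3.44, 2.75 and 2.69 at the second probe against 4.53, 3.95, 3.43 and 3.58. Both of its probes were highest on replicate 1.

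In the other 2 the probes disagreed. FBtr0305704 read 4.27, 4.18, 4.63 and 4.61 at the probe that made it a member. Its second probe read -1.03, -0.97, -0.78 and -0.63, a mean of -0.86 ± 0.18 (SD, n = 4), on the other side of 0 on all 4 arrays. That second probe was firmly measured, with wild type signals of 1488 to 2842, while the first had 88 to 148. Before centring, the mutant signals of the second probe were the higher, at 4246 to 6505.5. FBtr0113204 read 4.13, 3.61, 3.56 and 3.67 at one probe and 1.31, 1.31, 0.98 and 0.54 at the other. Its 2 probes were almost equally bright, with mean summed signals of 5429 and 5162, so a small difference in brightness set which ratio represents the transcript. For both transcripts a change of the whole transcript is not shown.

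**Figure D4:**
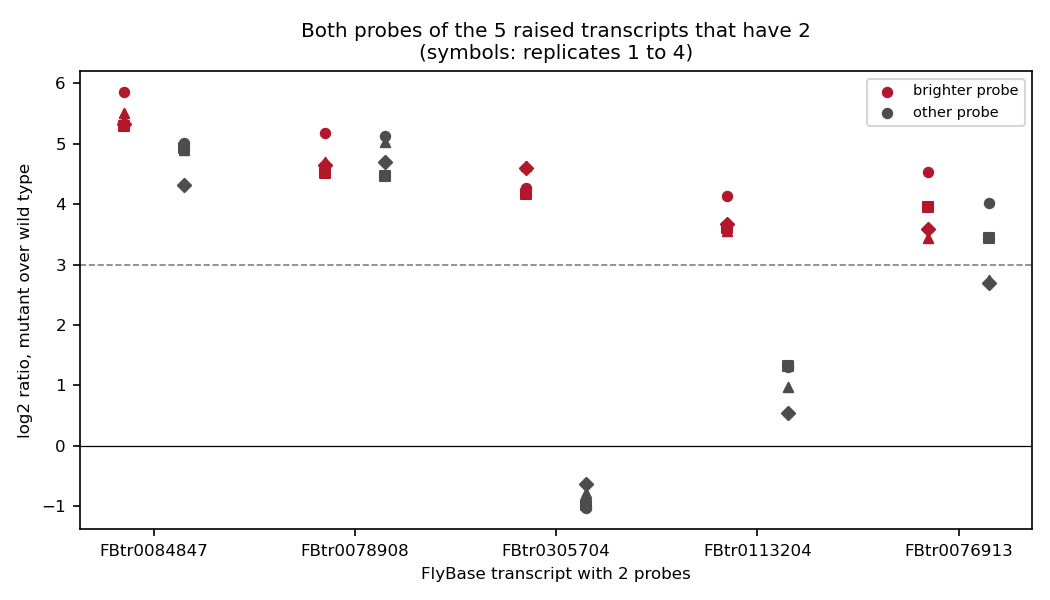
Log2 ratio of mutant over wild type (y axis) at both probes of the 5 members with 2 probes, with 1 symbol per array. In FBtr0305704 the second probe lies below 0, in FBtr0113204 between 0.54 and 1.31, and in the other 3 between 2.69 and 5.13.

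Taking the mean over all probes of a transcript, FBtr0305704 and FBtr0113204 no longer met the rule, and the other 29 did, beside 3 further transcripts (32 in all, 0.241%). The converse also occurred. FBtr0085733 had a probe at 3.84 ± 0.37 (SD, n = 4) with 3.47 at its lowest, while its brightest probe averaged 2.12 ± 0.40, and it was not a member. The 26 members with a single probe have no such cross-check.

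Several members carried neighbouring identifier numbers. FBtr0078003, FBtr0078004 and FBtr0078005 are consecutive, as are FBtr0088758 and FBtr0088759, and FBtr0082093 and FBtr0082095 are 2 apart. These make 7 of the 31 members. The sources used here do not say whether such transcripts belong to the same gene or lie side by side, and the probes could then share sequence. FBtr0078003 and FBtr0078004 were close on every array, at 4.62, 4.39, 4.78 and 4.20 against 4.49, 4.48, 4.85 and 4.12. FBtr0078005 was lower, at 3.54 to 4.09. All 3 had their lowest value on replicate 4.

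Around the members, 63 other transcripts within 2 identifier numbers were above background in both channels throughout. Their median of mean ratios was 0.15, and 18 of 63 (28.6%) had a mean of 1 or more, against 15.3% of all 13285 transcripts. These figures are a description, with no test. FBtr0082092, next to FBtr0082093, had the highest lowest array of the 63, at 2.97, 2.87, 2.48 and 3.20. FBtr0077218 and FBtr0077219 beside FBtr0077220 averaged 2.26 ± 0.14 and 2.19 ± 0.20 (SD, n = 4). FBtr0083156, near FBtr0083154, ran from 2.24 on replicate 3 to 4.12 on replicate 1.

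Next to FBtr0076913, FBtr0076914 read 3.07, 1.84, 0.97 and 1.31 and FBtr0076915 read 2.06, 1.11, 0.21 and 0.76. All 3 were highest on replicate 1, then on replicate 2, replicate 4 and replicate 3, the order also seen in FBtr0076913 itself. Of the 63 neighbours, 26 had a mean below 0. FBtr0084848, next to the top member FBtr0084847, averaged -2.87 ± 0.46 (SD, n = 4), and FBtr0077088, near FBtr0077086, averaged -2.92 ± 0.44.

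The same rule turned to the other side found 132 of 13285 transcripts (0.994%) at -3 or lower on every array, more than 4 times the 31 members. Both sides had to be detected in both channels. Before centring, an array's median signal was 3495.5 to 4574 in the mutant and 640.5 to 1046.25 in the wild type. The share of spots well above background was 84.8% to 86.5% in the wild type and 84.0% to 86.8% in the mutant. With no filter on detection, 45 of 15003 transcripts met the rule for raised ones. The matching count for reduced ones is not given. The part of detection in the difference between 132 and 31 was not tested. The median mean ratio of the 132 was -3.99, close in size to the 3.87 of the members, but the lowest reached -7.65. Their median SD between arrays was 0.36 against 0.26. All these ratios depend on where an array is centred. The median of 10 spike-in control probes lay between -0.69 and -0.28 relative to the centre used here. With the spike-in median at 0, every member is higher by the size of that shift, and 67 transcripts (0.504%) met the rule. A mean of 3 or more over the arrays was found for 69 (0.519%). Among targets with no FlyBase identifier, 12 met the rule, of which the highest were TC238685 at 6.15 ± 0.18, NP605089 at 4.65 ± 0.35 and BE975245 at 4.38 ± 0.24 (SD, n = 4). None of the 12 could be paired with a gene symbol either.

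In a test over the whole array, limma with Benjamini-Hochberg adjustment called 8421 of 21954 targets (38.4%) higher and 8159 (37.2%) lower in the mutant. All 31 members were among those called higher, as the choice of members by the same ratios makes nearly certain. The gene lists cover sex, tissues, Hdac1 complexes, heat shock and immune peptides, and could hardly be read. Of their 78 entries, 10 could be paired with a probe. Of 9 tested, 2 were called higher, 4 lower and 3 neither. The lysozyme gene LysE, active in the larval gut, came nearest to the members at 3.34, 3.39, 2.73 and 2.49 (mean 2.99 ± 0.44, SD, n = 4). It was called higher (2.51 with loess, on which the test ran), as was the heat shock cognate gene Hsc70-1 (0.89 ± 0.20, with loess 0.84). Both RNAs of the male dosage compensation complex were called lower, roX2 at -2.18 ± 0.54 and roX1 at -0.24 ± 0.28 (with loess -2.19 and -0.63). Of 4 neuronal genes, the acetylcholine receptor subunit nAChRalpha6 (-1.31 ± 0.14, with loess -0.51) and the potassium channel Sh (-0.99 ± 0.36, with loess -0.30) were called lower, and cac and cpo did not pass. The muscle factor Mef2 did not pass, and the immune peptide gene Dro was too faint to be tested. None of the listed testis, ovary, fat body, hemocyte or Hdac1 complex genes could be paired with a probe. The part of a different share of males or tissues in the members' ratios was not tested.

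Under 6 other ways of processing the arrays, every member kept a ratio of at least 1 on every array (31 of 31 in each). Since the members were chosen at 3 or higher on these same arrays, this was nearly certain beforehand and is no separate evidence. Their means over 4 arrays lay between 1.86 and 6.50. At the rule's threshold, 27 of the 31 remained without background subtraction (27 transcripts, 0.203%), 25 with normexp and median centring (26 transcripts, 0.196%) and 22 with normexp and loess (22 transcripts, 0.166%). FBtr0077657, FBtr0071834, FBtr0081944 and FBtr0087854, all with a weak wild type signal, were lost under each of these 3. By the log ratio of the scanner software, 30 remained among 44 transcripts (0.331%), and the exception was FBtr0087746.

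**Figure D5:**
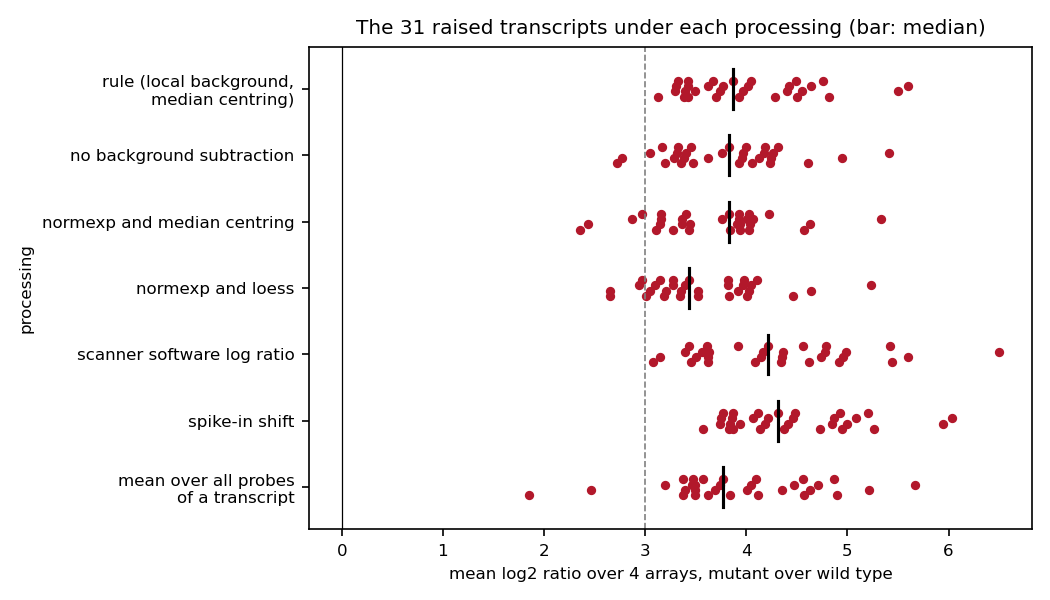
Mean log2 ratio over 4 arrays (x axis) of the 31 members under the rule and 6 alternatives (y axis), with 1 point per member and a bar at the median. Medians run from 3.44 with normexp and loess to 4.32 with the spike-in shift, and no point lies below 1.86.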

How the data were processed

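The scans were quantified in Agilent Feature Extraction 10.5.1.1, per the submitters' processing notes. Among the deposited values, the intensity values are median pixel intensities of spots and local backgrounds, and a deposited log10 ratio (red over green) comes from that software's processed signals, per the file headers. The submitters' table of values repeats this log10 ratio (largest difference 0). The deposited flags mark spots well above background, saturated, non-uniform or read at lower gain. All 4 arrays lie on 1 slide with 1 scan.

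Control spots were left out and spots averaged per probe (Python 3.11.15, pandas 2.3.3). Of several probes the one with the highest mean summed signal was used. Detection needed a mean flag of 0.5 or more in both channels on all 4 arrays. Ratios are log2 of background-subtracted red over green, minus the array median. For all targets, probes well above background on 3 of 4 arrays in 1 channel were fitted in limma 3.58.1 (R 4.3.3) with lmFit and eBayes after normexp (offset 50) and loess, two-sided, adjusted p threshold 0.05, leaving out 27 to 83 non-uniform spots per array. The fit was tried on simulated independent noise over 21903 targets. It recovered 79% of 100 targets changed by a log2 of 1 and 96% of 100 changed by 2. Far more targets were called in the data, so the simulation does not check dye, centring or that share. The p-values set the mean ratio against the spread between these 4 arrays. Alternatives changed background, centring, probe choice, detection, threshold or replicates.

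Gene symbols were looked up in a RefSeq table (Release 6), used for names alone, through symbols, synonyms (cDNA clone names included) and accessions, and 326 of 32171 probes could be paired. The members, marker lists and rule for named transcripts were chosen with earlier results of these data known. Named were the extremes by ratio, spread and wild type signal, those beside the threshold and those whose probes differ. The identifier neighbours, the partly detected transcripts and the detector gain were looked at after the data were seen. The listed genes were sex, testis, ovary, neuron, muscle, fat body, gut lysozyme and hemocyte markers, Hdac1 complexes, heat shock and immune peptide genes.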

Additional observations from a re-analysis of the deposited data

Results flagged for a closer look

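Each of the 31 members was checked for 1 array standing far from the other 3. None did (0 of 31). The rule had already left out transcripts with 1 array below 3, so this count describes selected values and is not set against chance.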

How the results depend on the processing

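The number of transcripts that meet the rule was 31. It moved to 67 (0.504%) with the spike-in shift, to 16 with both channels at least 4 times their local background, and to 69 (0.519%) with a mean of 3 or more in place of every array. Without 1 replicate it ran from 34 to 53. Leaving out an array loosens a demand made of every array, and the 31 members remained each time. It was 45 with no filter on detection and 31 without non-uniform spots. The median of the members' means, 3.87, was 3.44 with normexp and loess, 4.22 by the log ratio of the scanner software and 4.32 with the spike-in shift, and ran from 3.70 to 3.92 without 1 replicate. The counts of targets called by limma stayed within 1.5 times of 8421 higher and 8159 lower under all alternatives run. For single members, 102 of the alternative values differed from the mean by over 1 SD and 208 did not. Many of the 208 could not have differed by that much. Leaving out 1 of 4 arrays cannot move a mean by over 1 SD. For the 26 members with 1 probe, the mean over all probes repeats that probe with another centre. The 208 are therefore no measure of stability. None of the alternative values changed sign, but no alternative used a second probe alone. The cause of these moves was not tested. The ratios and the limma test are already paired, because each array holds both genotypes and its ratio is the pair. Faint wild type signals, under 150 in 15 members, limit how firmly the size of their ratios is known. The single dye orientation and the whole larvae limit what a ratio describes.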
